A study of Mus musculus with 12 samples.

Results

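Cytochrome P450 enzymes are haem proteins that put oxygen onto drugs, dietary chemicals, fatty acids, retinoids and sterols. The genes described here were all protein-coding genes of the mouse count table whose symbol begins with Cyp and a digit, without Cyp51, which belongs to cholesterol synthesis. There were 99 such genes among the 54532 genes of the table. They were grouped by family number, with 81 genes in families 1 to 4 (xenobiotics and lipids) and 15 in families 11 and higher (steroids, sterols and vitamins). The other 3 genes, in families 7 and 8, serve bile acid and oxysterol metabolism and were treated separately.

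RNA came from the colon of C57BL/6N mice aged 6 to 8 weeks, in 4 groups with 3 libraries apiece. The Tmem173fl/fl mice have floxed alleles of Tmem173, the gene of STING, without Cre. Tmem173iΔmye mice carry the same alleles and a tamoxifen-inducible Cre placed in Lyz2, a gene of myeloid cells, so the deletion is limited to cells that use this gene. Mice of both genotypes had 5 tamoxifen injections, untreated mice included. For 7 days the colitic mice of each genotype drank water with dextran sodium sulfate (DSS), a polymer toxic to the colon lining, and the untreated mice did not. The libraries of colitic Tmem173iΔmye mice carry the numbers 1, 2 and 5.

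Library totals ran from 13823237 to 18718915 counts. Levels are given in FPKM, counts scaled to gene length and library depth. Tmem173 itself was at 18.6, 19.2 and 16.6 FPKM in colitic Tmem173fl/fl and at 20.7, 10.2 and 13.2 FPKM in colitic Tmem173iΔmye libraries, so the genotypes overlapped in RNA of the whole tissue. Replicate 5 of the colitic Tmem173iΔmye mice stood apart: the summed level of 4 Hox genes of the distal colon was 192 FPKM there. It was 33.5 and 36.0 FPKM in replicates 1 and 2 of that group. In colitic Tmem173fl/fl libraries it was 8.64 to 15.1 FPKM, so the colitic genotypes did not overlap in these genes. Xist exceeded the Y-linked genes in replicate 5 of colitic Tmem173iΔmye mice and in replicate 3 of both untreated groups, and in no other. The summed level of 6 pancreas genes ran from 0.316 to 7519 FPKM over the colitic libraries and from 0 to 2147 FPKM over the untreated ones.

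In the intestine, P450 enzymes of families 2, 3 and 4 sit mainly in the absorptive epithelium, where they oxidise swallowed chemicals and turn arachidonic acid and other fatty acids into signalling lipids. Cyp7b1, Cyp27a1, Cyp39a1 and Cyp46a1 hydroxylate cholesterol or its oxysterol products, some of which guide immune cells. Cyp26 enzymes break down retinoic acid, and Cyp27b1, Cyp2r1 and Cyp24a1 make or remove active vitamin D. In RNA from a whole tissue, fewer cells of a type and less RNA per cell cannot be told apart.

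Of the 99 genes, 49 had at least 0.1 FPKM in at least 3 libraries and were tested, and 34 had a mean of at least 1 FPKM in at least 1 group. The other 50 were not tested, 20 of them without a read and 30 with 1 to 56 counts in total over the 12 libraries. The tested share was 39 of 81 in families 1 to 4, 8 of 15 in families 11 and higher, and 2 of 3 in families 7 and 8. None of the 4 Cyp2a or 5 Cyp2b genes passed and 1 of 8 Cyp4a genes did, whereas 6 of 8 Cyp2d and 7 of 9 Cyp4f genes passed. Among the untested genes were Cyp1a2, Cyp7a1, the rate-limiting enzyme of bile acid synthesis, and the steroid and vitamin D genes Cyp11a1, Cyp17a1, Cyp19a1 and Cyp24a1. Cyp3a44 and Cyp11b1 reached 0.1 FPKM only in colitic libraries, so they were tested only because they were higher there.

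A few genes made up most of the P450 RNA of the colon. Cyp2c55, of a subfamily that oxidises arachidonic acid, was first in every group, at 125 ± 84.0 FPKM in untreated Tmem173fl/fl, 233 ± 65.3 in untreated Tmem173iΔmye, 278 ± 103 in colitic Tmem173fl/fl and 249.7 ± 188 in colitic Tmem173iΔmye mice (SD, n = 3 each). In untreated Tmem173fl/fl mice it was followed by Cyp2d34 at 82.2 ± 20.6, Cyp4f14 at 62.5 ± 19.5 and Cyp3a13, a Cyp3a enzyme of the mouse gut, at 59.98 ± 5.06 FPKM. Each of these neighbours in rank overlapped from library to library, so their order was within the replicate spread. Below them came Cyp4f40 at 39.96, Cyp2s1 at 31.5, Cyp4f16 at 26.9, Cyp2c65 at 23.6 and Cyp2c68 at 21.4 FPKM. The sum over all members was 583 ± 103, 688 ± 114, 669 ± 157 and 707 ± 207 FPKM in the same 4 groups, and the members took 0.129% to 0.206% of all counts. The ranges of that sum overlapped between the groups, whereas single genes differed in both directions within it.

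**Figure D1:**
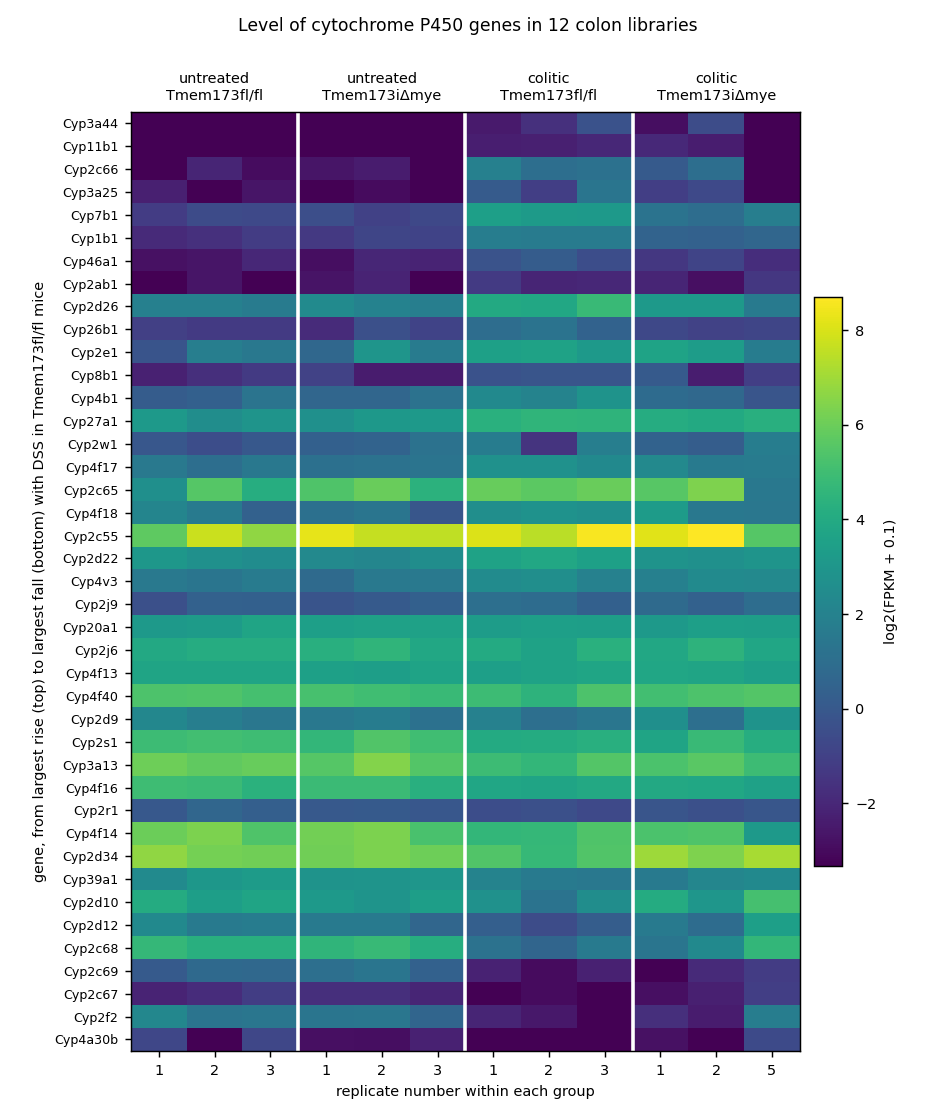
Level of the 41 genes that were called in any comparison or had a mean of at least 1 FPKM in at least 1 group, as log2(FPKM + 0.1) by colour, with 1 column per library and genes ordered from the largest rise to the largest fall with DSS in Tmem173fl/fl mice. Genes at the top are brighter in colitic Tmem173fl/fl libraries and genes at the bottom brighter in untreated ones, and for Cyp2c66, Cyp2c68 and Cyp2f2 replicate 5 of the colitic Tmem173iΔmye mice has the colour of the untreated libraries.

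The first comparison asked which P450 genes change with colitis in mice without Cre. Of the 49 genes, 26 were called (edgeR quasi-likelihood test, Benjamini-Hochberg adjusted p under 0.05 over 24102 genes and a log2 fold change of at least 1 in size), 16 higher and 10 lower in colitic Tmem173fl/fl mice. Over all genes tested 22.5% were called, 14.9% higher and 7.61% lower, beside 53.1% of the members, 32.7% higher and 20.4% lower. The groups did not overlap for 32 of 49 members, 19 higher and 13 lower, against 48.7% of all genes (25.1% higher, 23.6% lower). The median log2 fold change of the 49 was 0.52, beside 0.03 over all genes. By family, 19 of 39 were called in families 1 to 4 (10 higher, 9 lower), 5 of 8 in families 11 and higher (4 higher, 1 lower) and both tested genes of families 7 and 8 (higher).

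Cell type markers moved in the same libraries. The summed level of 8 epithelial markers was 5048 to 6269 FPKM in untreated and 1876 to 3304 FPKM in colitic Tmem173fl/fl libraries. That of 6 fibroblast markers was 145 to 173 and 1017 to 1275 FPKM, that of 6 macrophage markers 88.5 to 113 and 318 to 429 FPKM, and that of 4 neutrophil markers 1.33 to 5.27 and 329 to 487 FPKM. The neutrophil markers Cxcr2 and S100a8 were at 0 in at least 1 untreated library and no other marker of these lists was. Sums of goblet, endothelial, liver, and tuft and enteroendocrine markers did not overlap either. For 6 goblet markers they were 4809 to 7395 FPKM without DSS and 1852 to 3493 FPKM with it. Those of 8 colonocyte markers overlapped, at 2512 to 3834 FPKM without DSS and 1977 to 2978 FPKM with it. Yet 7 of these 8 genes were called, 6 lower and 1 higher, beside 22.5% of all genes. Means of Car1 went from 434 to 1328 FPKM and those of Car4 from 336 to 80.0 FPKM. The sums of smooth muscle and lymphocyte markers overlapped as well. The 4 distal Hox genes summed to 93.0 to 160.1 FPKM without DSS and 8.64 to 15.1 FPKM with it. The part of these shifts in the changes of P450 genes was not tested.

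Of the members that act on oxysterols and bile acids, Cyp7b1 (ENSMUSG00000039519, GRCm38 chromosome 3, 18071950 to 18243338), the oxysterol 7α-hydroxylase that removes 25- and 27-hydroxycholesterol, was at 0.340, 0.578 and 0.538 FPKM in untreated Tmem173fl/fl libraries and at 11.04, 9.44 and 8.65 FPKM in colitic ones. The lowest colitic library was far above the highest untreated one, and the log2 fold change was 4.32 with a standard error (SE, given after ± for every log2 fold change) of 0.26 (adjusted p 2.41e-06 by edgeR). Cyp27a1, the mitochondrial sterol 27-hydroxylase, was at 8.63, 5.76 and 7.40 FPKM and then at 19.8, 23.7 and 22.7 FPKM, and it rose by 1.62 ± 0.18 on the log2 scale (adjusted p 9.36e-05 by edgeR). Cyp46a1, the cholesterol 24-hydroxylase best known from neurons, rose from 0.0848 ± 0.0565 to 0.791 ± 0.215 FPKM, and Cyp8b1, the sterol 12α-hydroxylase, from 0.210 ± 0.101 to 0.784 ± 0.0471 FPKM. Cyp39a1, which 7α-hydroxylates 24-hydroxycholesterol, went the other way and fell from 7.77 ± 2.26 to 3.22 ± 0.698 FPKM.

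Of 7 further genes of bile acid and oxysterol handling, 6 were tested and 5 were called, 4 higher and 1 lower, beside 22.5% of all genes. Ch25h, the enzyme that makes 25-hydroxycholesterol, rose from 0.862 ± 0.397 to 7.45 ± 1.58 FPKM, a log2 fold change of 3.13 ± 0.35. Slc10a2, the bile acid importer of the ileum, rose by 5.90 ± 0.41 and Slc51a, a subunit of the basolateral exporter, by 5.51 ± 0.65 on the log2 scale. Gpbar1, a bile acid receptor, rose by 2.85 ± 0.46, whereas Fabp6, the bile acid carrier of enterocytes, fell by 2.91 ± 0.63. The other subunit of the exporter, Slc51b, was not called, at 19.7 ± 5.29 and 24.8 ± 4.204 FPKM (0.35 ± 0.23, adjusted p 0.271 by edgeR).

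Among retinoid, vitamin D and steroid genes, Cyp26b1 (ENSMUSG00000063415, GRCm38 chromosome 6, 84571414 to 84593908), which degrades retinoic acid, was at 0.385, 0.308 and 0.310 FPKM without DSS and at 1.87, 2.32 and 1.28 FPKM with DSS in Tmem173fl/fl mice. All 3 colitic libraries lay above the untreated ones, with a log2 fold change of 2.47 ± 0.30 (adjusted p 0.000154 by edgeR). Its relative Cyp26a1 was not called. Of 17 genes of retinoid enzymes and carriers, 10 were called, 8 higher and 2 lower, beside 22.5% of all genes. Those that rose included the retinaldehyde dehydrogenases Aldh1a1 (1.30 ± 0.23), Aldh1a2 (1.76 ± 0.35) and Aldh1a3 (3.74 ± 0.21, all log2 fold changes). Adh1, an alcohol dehydrogenase that also oxidises retinol, fell by 2.78 ± 0.16, and the retinol dehydrogenase Rdh16 fell by 1.497 ± 0.27.

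Cyp11b1, the 11β-hydroxylase of the last step of corticosterone synthesis, had 0 counts in the 3 untreated Tmem173fl/fl libraries and 6, 7 and 7 counts in the colitic ones, at least 5.62-fold higher against a floor of 3 counts over the untreated group. Its near copy Cyp11b2 was not tested, and reads of the pair may be shared. Of 11 tested genes of steroid handling, 2 were called, no larger a share than the 22.5% of all genes. Hsd11b1, which regenerates active glucocorticoid, was higher by 2.83 ± 0.25 on the log2 scale and Hsd17b2 was at -1.03 ± 0.24. The vitamin D genes Cyp27b1 and Cyp2r1 were not called, and Cyp2r1, a 25-hydroxylase, was at 1.18 ± 0.281 and 0.599 ± 0.0679 FPKM. Vdr, the vitamin D receptor, fell by 1.501 ± 0.15 on the log2 scale. Cyp20a1, an enzyme of no settled function, was at 10.5 ± 2.28 and 10.4 ± 0.560 FPKM and was not called.

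Families 1 to 4 split in both directions. Cyp1b1 (ENSMUSG00000024087, GRCm38 chromosome 17, 79706953 to 79715041), which oxidises oestrogens and aromatic hydrocarbons and is a target of the aryl hydrocarbon receptor, was at 0.172, 0.219 and 0.347 FPKM without DSS and at 3.36, 3.09 and 3.16 FPKM with it in Tmem173fl/fl mice. The groups were far apart and the log2 fold change was 3.70 ± 0.28 (adjusted p 9.23e-06 by edgeR). Cyp1a1, the other tested gene of the family and the usual reporter of that receptor, was not called. Its level was near the filter of 0.1 FPKM in both groups, so its missing call does not exclude a change. The receptor genes Ahr and Arnt and the target Tiparp were not called either. Cyp4b1 (ENSMUSG00000028713, GRCm38 chromosome 4, 115624725 to 115647723), an enzyme that hydroxylates fatty acids and activates lung toxins, was at 1.04, 1.198 and 2.34 FPKM and then at 5.05, 4.01 and 7.08 FPKM. Its groups did not overlap, and it rose by 1.82 ± 0.34 on the log2 scale (adjusted p 0.00247 by edgeR). Cyp2e1, which oxidises ethanol, rose from 2.33 ± 1.38 to 10.7 ± 1.66 FPKM.

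Among the genes that fell, Cyp2f2, which activates naphthalene in the club cells of the airway, was at 4.69, 2.34 and 2.55 FPKM in untreated Tmem173fl/fl libraries and at 0.135, 0.0706 and 0 FPKM in colitic ones, with 285 and 8 counts in total. It fell by 5.37 ± 0.61 on the log2 scale (adjusted p 0.000106 by edgeR). Cyp2c68 was at 25.4, 19.4 and 19.4 FPKM and then at 2.25, 1.44 and 2.89 FPKM, and it fell by 3.28 ± 0.26 (adjusted p 1.26e-05 by edgeR). This gene, of rank 9 by level in the untreated colon, lay below 3 FPKM in each colitic Tmem173fl/fl library. Cyp4a30b, with 10, 0 and 12 counts in untreated and 0 in all colitic Tmem173fl/fl libraries, was at least 8.70-fold lower against the floor, but its groups overlapped at 0.

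In the Cyp4f subfamily, which removes leukotriene B4 and other lipid mediators by ω-hydroxylation, Cyp4f17 rose from 2.48 ± 0.501 to 6.22 ± 0.893 FPKM and Cyp4f18, the form known from neutrophils, from 2.88 ± 1.59 to 6.41 ± 0.376 FPKM. Cyp4f14 fell from 62.5 ± 19.5 to 30.7 ± 9.31 FPKM. Several abundant genes had an adjusted p under 0.05 but missed the threshold on the fold. Cyp4f16 was at 26.9 ± 5.72 and 14.0 ± 1.31 FPKM with -0.92 as log2 fold change (adjusted p 0.00206 by edgeR), Cyp2s1 at 31.5 ± 1.33 and 17.5 ± 1.58 FPKM with -0.83, and Cyp3a13 at 59.98 ± 5.06 and 33.3 ± 10.0 FPKM with -0.84. In the other direction Cyp4v3, an ω-hydroxylase of fatty acids, was at 2.81 and 5.05 FPKM (0.86) and Cyp2d22 at 6.74 and 12.8 FPKM (0.94).

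The remaining genes above 1 FPKM were not called. The group means without and with DSS were 12.9 and 12.2 FPKM for Cyp4f13, 39.96 and 30.7 for Cyp4f40, 3.61 and 2.77 for Cyp2d9, 16.6 and 16.0 for Cyp2j6, 1.03 and 1.69 for Cyp2j9, and 0.790 and 2.28 for Cyp2w1. Cyp2c55, the most abundant member, was at 52.0, 217 and 106 FPKM and then at 273, 178 and 383 FPKM, with a log2 fold change of 1.17 ± 0.44 (adjusted p 0.0636 by edgeR). Its untreated libraries spread about as widely as the groups differed.

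Without 1 of the 6 libraries at a time, 19 of the 26 genes were called each time. The other 7 were Cyp2ab1, Cyp2c67, Cyp2d34, Cyp3a44, Cyp4a30b, Cyp4f14 and Cyp4f18. For the 3 abundant ones the log2 fold change then ran from -1.22 to -0.87 for Cyp2d34, -1.30 to -0.78 for Cyp4f14 and 0.81 to 1.62 for Cyp4f18. Without untreated replicate 3, the library here with Xist above the Y-linked genes, Cyp2ab1, Cyp2c67, Cyp3a44, Cyp4a30b and Cyp4f18 were not called. Over all alternatives run, 13 of the 26 were called each time. The 6 pancreas genes summed to 0 to 2147 FPKM in untreated and 418 to 6898 FPKM in colitic Tmem173fl/fl libraries. With their level as a covariate, a fit added after the data were seen, 19 members were called, and Cyp2ab1, Cyp2d10, Cyp2d34, Cyp2e1, Cyp4a30b, Cyp4f14, Cyp8b1 and Cyp11b1 of the 26 were not. Their adjusted p by edgeR was then 0.0874 for Cyp2d10, 0.0824 for Cyp2d34, 0.0694 for Cyp2e1, 0.227 for Cyp4f14 and 0.127 for Cyp8b1.

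**Figure D2:**
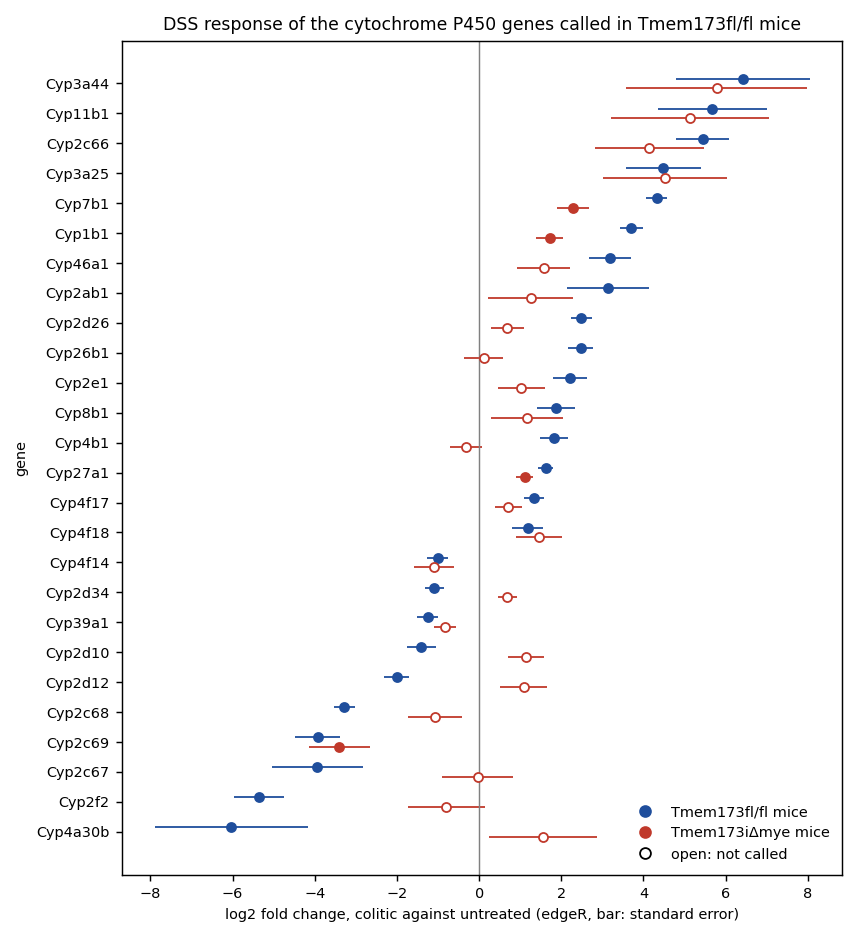
Log2 fold change with DSS (horizontal axis, edgeR) of the 26 genes called in Tmem173fl/fl mice, in Tmem173fl/fl and Tmem173iΔmye mice. Bars are standard errors, filled points were called and open points were not: 4 points of Tmem173iΔmye mice are filled, and in that genotype the points of Cyp2d10, Cyp2d12, Cyp2d34, Cyp4a30b and Cyp4b1 lie on the other side of 0. Values of Cyp3a44, Cyp11b1 and Cyp4a30b rest on groups with 0 counts and depend on the prior count of the fit.

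Genes of the same chromosomal cluster moved in opposite directions. In the Cyp2c cluster on chromosome 19, Cyp2c66 was at 0, 0.136 and 0.0315 FPKM without DSS and at 3.68, 1.959 and 2.17 FPKM with DSS, a log2 fold change of 5.44 ± 0.64 on 5 and 272 counts (adjusted p 0.000140 by edgeR). Its neighbours Cyp2c65 (23.6 ± 20.6 and 57.9 ± 6.40 FPKM) and Cyp2c55 were not called. Further along the cluster Cyp2c67, Cyp2c68 and Cyp2c69 fell. Cyp2c69 went from 0.956, 1.60 and 1.56 FPKM to 0.124, 0.0269 and 0.117 FPKM (-3.92 ± 0.55, adjusted p 0.000401 by edgeR). Cyp2c67 had 18 counts in untreated and 1 in colitic libraries, a ratio of 21.4 with a 95% counting interval of 3.37 to 889.9. Reads of such near copies may be split between them, so the values of single Cyp2c members are uncertain.

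In the Cyp2d cluster on chromosome 15, whose human counterpart oxidises many drugs, Cyp2d26 rose while Cyp2d10, Cyp2d12 and Cyp2d34 fell. Cyp2d26 was at 3.65, 3.72 and 3.12 FPKM without DSS and at 15.8, 14.7 and 27.9 FPKM with DSS, a log2 fold change of 2.49 ± 0.26 (adjusted p 6.51e-05 by edgeR). Cyp2d10 fell from 13.4 ± 3.19 to 4.99 ± 2.36 FPKM and Cyp2d12 from 3.80 ± 1.21 to 0.937 ± 0.295 FPKM. The most abundant gene of the cluster, Cyp2d34 (ENSMUSG00000094559, GRCm38 chromosome 15, 82615965 to 82620946), fell from 106, 73.1 and 67.7 FPKM to 43.7, 26.8 and 43.9 FPKM (-1.09 ± 0.23, adjusted p 0.00451 by edgeR). The same uncertainty from near copies holds for these genes.

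Of the Cyp3a genes on chromosome 5, Cyp3a25 rose from 5 counts in total to 129 (4.48 ± 0.92 on the log2 scale). Cyp3a44 had 0 counts without DSS and 32 with it, 8.99-fold higher against the floor, with a lower 95% counting limit of 6.90. Both are far below the abundant Cyp3a13, which was not called. Cyp2ab1 was also higher, with 3 counts in untreated and 34 in colitic libraries, a ratio of 9.55 with a 95% counting interval of 3.004 to 48.6. The counting intervals and limits cover counting error only, and the ratios to a floor take no account of it in the higher group.

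**Figure D3:**
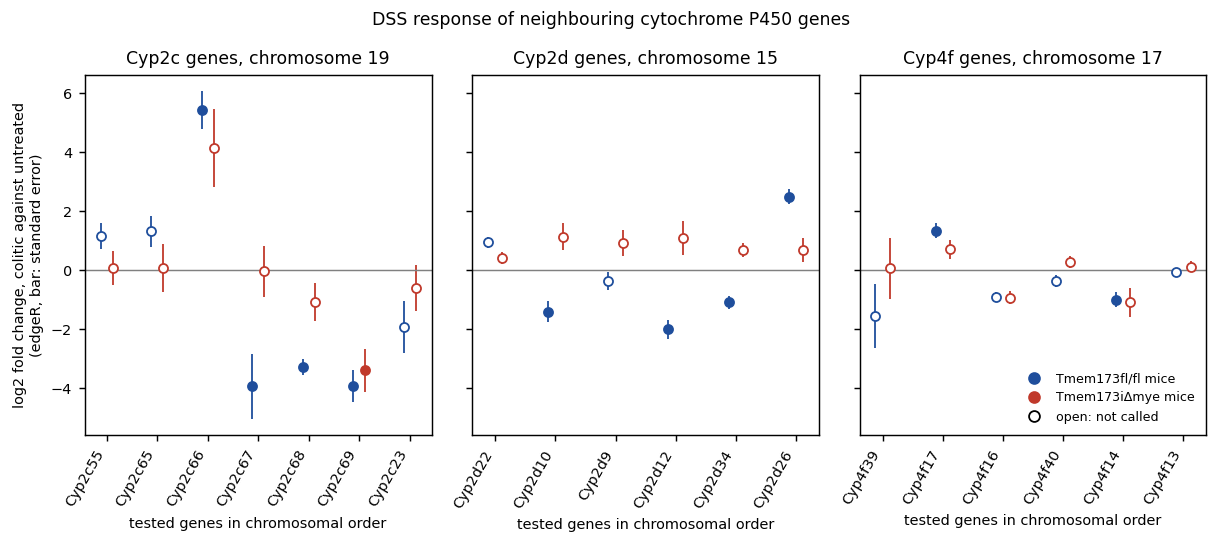
Log2 fold change with DSS (vertical axis, edgeR, bars are standard errors) of the tested genes of the Cyp2c, Cyp2d and Cyp4f clusters in chromosomal order, in Tmem173fl/fl and Tmem173iΔmye mice, with filled points for called genes. In Tmem173fl/fl mice Cyp2c66 and Cyp2d26 lie above 0 while Cyp2c67, Cyp2c68, Cyp2c69, Cyp2d10, Cyp2d12 and Cyp2d34 lie below it.

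The start regions of the Cyp2c neighbours are shown because these genes share a cluster and moved apart. Each run is 300 bases, from 250 bases before to 50 bases after the RefSeq start on GRCm38.p6, written 5′ to 3′ on the strand of the gene, for Cyp2c66 at chr19:39113648-39113947 on the plus strand and for Cyp2c68 at chr19:39741052-39741351 and Cyp2c69 at chr19:39886720-39887019 on the minus strand. Capitals mark exact matches, on either strand, to GCGTG (core of the aryl hydrocarbon receptor site, CACGC in reverse), AGGTCA (half-site of nuclear receptors, TGACCT in reverse) and TATAAA (the TATA box, TTTATA in reverse). No 2 matches overlapped in the windows shown.
Cyp2c66: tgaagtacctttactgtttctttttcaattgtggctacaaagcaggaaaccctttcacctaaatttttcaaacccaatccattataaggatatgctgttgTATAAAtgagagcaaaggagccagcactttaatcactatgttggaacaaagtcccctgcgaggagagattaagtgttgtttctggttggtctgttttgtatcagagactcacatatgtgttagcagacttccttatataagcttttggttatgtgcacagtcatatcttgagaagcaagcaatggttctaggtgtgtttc
Cyp2c68: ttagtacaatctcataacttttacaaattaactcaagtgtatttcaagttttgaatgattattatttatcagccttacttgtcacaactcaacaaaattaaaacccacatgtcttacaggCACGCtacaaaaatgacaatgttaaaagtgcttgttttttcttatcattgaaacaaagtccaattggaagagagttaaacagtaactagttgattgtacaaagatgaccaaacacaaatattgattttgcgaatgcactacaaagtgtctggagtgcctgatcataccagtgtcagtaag
Cyp2c69: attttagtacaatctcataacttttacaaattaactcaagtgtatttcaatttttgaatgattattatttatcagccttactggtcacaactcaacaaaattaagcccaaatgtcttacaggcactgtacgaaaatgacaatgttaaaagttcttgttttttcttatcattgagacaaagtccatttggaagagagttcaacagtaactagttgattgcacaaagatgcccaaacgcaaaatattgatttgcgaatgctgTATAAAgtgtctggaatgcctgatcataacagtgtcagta
Aligned end to end, the windows of Cyp2c68 and Cyp2c69 were identical at 91.1% of aligned columns. That of Cyp2c66 shared 48.9% with Cyp2c68 and 51.5% with Cyp2c69. Any part of these start regions in the changes with DSS was not tested. Cyp2c66 held TATAAA with its first base 150 bases before the start, Cyp2c68 held CACGC at 130 before it and Cyp2c69 held TATAAA at 10 after it.

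Of the 99 members, 76 had a window in the RefSeq table, among them 39 of the 49 tested. GCGTG was found for 16 of the 76 genes (21.1%) and in 32.4% of all 32851 windows of that length, AGGTCA for 21 (27.6%) and in 16.3%, and TATAAA for 33 (43.4%) and in 13.6%. A gene with several windows counts once here, so its share is not on the same base as that of the windows. Among the 39 tested genes the numbers were 13 for GCGTG, 4 for AGGTCA and 14 for TATAAA. Such a match is a description of the letters and not of binding. The windows of Cyp1b1 at chr17:79715012-79715311, Cyp4b1 at chr4:115647672-115647971 and Cyp26b1 at chr6:84593761-84594060, all on the minus strand, are shown in the same way because these genes rose with DSS in Tmem173fl/fl mice and also differed between the colitic genotypes.
Cyp1b1: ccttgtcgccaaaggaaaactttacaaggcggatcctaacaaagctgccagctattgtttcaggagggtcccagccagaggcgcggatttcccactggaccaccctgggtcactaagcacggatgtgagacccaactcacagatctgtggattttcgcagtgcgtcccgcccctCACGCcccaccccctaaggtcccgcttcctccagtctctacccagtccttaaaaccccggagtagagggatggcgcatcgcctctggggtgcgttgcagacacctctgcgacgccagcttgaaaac
Cyp4b1: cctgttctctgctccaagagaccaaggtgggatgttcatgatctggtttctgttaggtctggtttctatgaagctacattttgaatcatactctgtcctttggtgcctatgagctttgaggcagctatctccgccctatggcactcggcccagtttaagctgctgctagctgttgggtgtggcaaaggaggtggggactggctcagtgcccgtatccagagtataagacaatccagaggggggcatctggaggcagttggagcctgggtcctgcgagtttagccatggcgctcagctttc
Cyp26b1: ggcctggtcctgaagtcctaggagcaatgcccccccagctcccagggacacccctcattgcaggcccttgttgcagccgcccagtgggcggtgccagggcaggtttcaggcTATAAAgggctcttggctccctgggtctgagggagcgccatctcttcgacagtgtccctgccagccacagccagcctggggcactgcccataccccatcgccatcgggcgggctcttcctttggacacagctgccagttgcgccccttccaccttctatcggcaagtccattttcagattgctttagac
The window of Cyp1b1 held CACGC with its first base 76 bases before the start, that of Cyp26b1 held TATAAA at 139 before it, and that of Cyp4b1 held none of the 3 motifs.

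In Tmem173iΔmye mice the same comparison asked what DSS changed after deletion of STING in myeloid cells. Of the 49 genes 4 were called, Cyp1b1, Cyp7b1 and Cyp27a1 higher and Cyp2c69 lower, or 8.16%, beside 2.08% of all genes (1.48% higher, 0.597% lower). The groups did not overlap for 15 of 49 members, 10 higher and 5 lower, against 21.3% of all genes (12.1% higher, 9.25% lower). An unadjusted p under 0.05 was found for 18 of the 49 members, beside 15.6% of all genes. Cyp7b1 was at 0.629, 0.405 and 0.519 FPKM without DSS and at 2.30, 1.90 and 3.47 FPKM with DSS, a log2 fold change of 2.29 ± 0.40 (adjusted p 0.0195 by edgeR). Cyp1b1 was at 0.301, 0.479 and 0.438 FPKM and then at 1.32, 1.24 and 1.49 FPKM (1.72 ± 0.33, adjusted p 0.0289 by edgeR). Both genes thus rose in each genotype.

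Cyp27a1 was at 6.49, 8.53 and 8.77 FPKM and then at 17.2, 15.8 and 18.9 FPKM in Tmem173iΔmye mice (1.11 ± 0.21, adjusted p 0.0264 by edgeR). Cyp2c69 was at 1.98, 2.41 and 1.24 FPKM and then at 0, 0.173 and 0.335 FPKM (-3.40 ± 0.74, adjusted p 0.0447 by edgeR). For both, no colitic library overlapped an untreated one. The number of calls moved with single libraries: it was 0 without any 1 of the untreated libraries, 1 (Cyp7b1) without replicate 1 and 2 (Cyp7b1 and Cyp27a1) without replicate 2 of the colitic group, and 9 without replicate 5. Without both libraries in which Xist exceeded the Y-linked genes, untreated replicate 3 and colitic replicate 5, Cyp1b1, Cyp7b1 and Cyp27a1 were not called.

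Other genes that had moved in Tmem173fl/fl mice were spread widely over the 3 colitic Tmem173iΔmye libraries. Cyp2c68 was at 2.43, 5.16 and 24.8 FPKM in replicates 1, 2 and 5, beside 17.7 to 27.4 FPKM without DSS, and Cyp2f2 was at 0.211, 0.0909 and 3.36 FPKM, beside 1.40 to 2.54 FPKM. Cyp2c66 had 26, 62 and 0 counts and Cyp2c65 was at 47.1, 84.5 and 2.67 FPKM in the same libraries. For Cyp2c68, Cyp2f2 and Cyp2c66 replicate 5 lay within or beyond the untreated range, away from the other pair. It is also the library in which the distal Hox genes summed to 192 FPKM against 33.5 and 36.0 FPKM, and the part of that difference was not tested.

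Partner genes of the P450 enzymes (83 genes of redox partners, receptors, other P450 enzymes, epoxide hydrolases and retinoid, steroid, bile acid and vitamin D handling, 80 of them tested) were called with DSS for 35 in Tmem173fl/fl mice, 21 higher and 14 lower, or 43.8% beside 22.5% of all genes, and for 4 in Tmem173iΔmye mice, or 5.0% beside 2.08%. They included Aldh1a3 (3.61 ± 0.33) and Slc10a2 (4.004 ± 0.81), higher, and Lrat, which esterifies retinol, lower (-2.16 ± 0.42, all log2 fold changes). Aldh1a3 was at 11.2 ± 2.58 FPKM in colitic Tmem173fl/fl and 11.2 ± 4.74 FPKM in colitic Tmem173iΔmye mice.

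Por, the reductase that passes electrons to microsomal P450 enzymes, rose in Tmem173fl/fl mice from 27.2 ± 5.29 to 62.2 ± 6.23 FPKM (1.21 ± 0.17 on the log2 scale) and was at 29.9 ± 1.03 and 29.9 ± 13.6 FPKM in Tmem173iΔmye mice. Of the 11 tested genes of redox partners and haem, Por rose, Cyb5b fell and the other 9 were not called in Tmem173fl/fl mice. This was no larger a share than the 22.5% of all genes. Among 25 receptors and regulators 9 were called in Tmem173fl/fl mice, 4 higher and 5 lower, beside the same 22.5%. Those that fell included Hnf4a, Hnf4g and Nr5a2, factors of the gut epithelium, at -1.32 ± 0.21, -1.63 ± 0.25 and -1.15 ± 0.18, and Ppard at -1.04 ± 0.16. The 3 P450 enzymes with other names were called, the prostacyclin synthase Ptgis at 1.75 ± 0.24, the thromboxane synthase Tbxas1 at 1.12 ± 0.20 and Cyp51 at -1.39 ± 0.18.

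Without DSS no P450 gene was called between the genotypes. With edgeR 0 of 49 members and 0% of all genes were called, and DESeq2 and limma also called 0 members. An unadjusted p under 0.05 was found for 4 of the 49 members, Cyp2c55, Cyp2d10, Cyp2d22 and Cyp2w1, beside 2.99% of all genes. The groups did not overlap for 3 of 49, Cyp27b1 and Cyp2w1 higher and Cyp4f13 lower in Tmem173iΔmye mice, against 7.29% of all genes (3.78% higher, 3.5% lower). Cyp2c55 was at 52.0 to 217 FPKM in Tmem173fl/fl and 187 to 307 FPKM in Tmem173iΔmye mice, a log2 difference of 0.90 with an approximate 95% interval of 0.18 to 1.62 (edgeR adjusted p 1).

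The comparison of colitic mice asked which P450 genes differed with the myeloid deletion during colitis. Of the 49 genes 5 were called, Cyp2d34 higher and Cyp1b1, Cyp4b1, Cyp7b1 and Cyp26b1 lower in Tmem173iΔmye mice, or 10.2%, beside 2.81% of all genes (0.822% higher, 1.99% lower). The groups did not overlap for 15 members, 5 higher and 10 lower, against 26.6% of all genes (10.8% higher, 15.8% lower). An unadjusted p under 0.05 was found for 15 of the 49 members, beside 20.2% of all genes. The colitic Tmem173fl/fl libraries also served the first comparison, so a gene high in them enters both. Cyp7b1 was at 8.65 to 11.04 FPKM in colitic Tmem173fl/fl and 1.90 to 3.47 FPKM in colitic Tmem173iΔmye mice, 3.80-fold lower by group means (-1.89 ± 0.29, adjusted p 0.0196 by edgeR). Cyp1b1 was at 3.09 to 3.36 and 1.24 to 1.49 FPKM (-1.22 ± 0.22, adjusted p 0.0303 by edgeR). In both cases colitic Tmem173iΔmye mice stood between untreated mice and colitic Tmem173fl/fl mice, with no overlap of libraries.

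Cyp26b1 was at 0.505, 0.424 and 0.476 FPKM in colitic Tmem173iΔmye mice against 1.28 to 2.32 FPKM in colitic Tmem173fl/fl mice (-1.93 ± 0.32, adjusted p 0.0230 by edgeR). Cyp4b1 was at 1.73, 1.58 and 0.814 FPKM against 4.01 to 7.08 FPKM (-1.94 ± 0.36, adjusted p 0.0317 by edgeR). For this pair the untreated mice of the Tmem173iΔmye genotype were at 0.177 to 0.678 FPKM for Cyp26b1 and 1.45 to 2.20 FPKM for Cyp4b1, so the colitic libraries lay within that range for Cyp26b1 and within or below it for Cyp4b1. Cyp2d34 was at 122, 84.1 and 142 FPKM against 26.8 to 43.9 FPKM, 3.04-fold higher by group means (1.64 ± 0.28, adjusted p 0.0262 by edgeR). Each of its colitic Tmem173iΔmye libraries was also above the untreated ones of that genotype, at 65.7 to 80.7 FPKM, though DSS in that genotype was not called (0.68 ± 0.23, adjusted p 0.187 by edgeR).

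The calls between colitic genotypes depended on single libraries. Without replicate 1 or 2 of colitic Tmem173fl/fl or replicate 2 of colitic Tmem173iΔmye mice 0 members were called, and without replicate 3 of colitic Tmem173fl/fl mice 1 was, Cyp26b1. The log2 fold changes without 1 library ran from -2.19 to -1.71 for Cyp7b1, -1.30 to -1.15 for Cyp1b1, -2.12 to -1.71 for Cyp26b1, -2.15 to -1.68 for Cyp4b1 and 1.45 to 1.84 for Cyp2d34. Without replicate 5 of colitic Tmem173iΔmye mice the same 5 genes were called.

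Markers of other cells differed between the same libraries. The fibroblast markers summed to 296 to 416 FPKM in colitic Tmem173iΔmye against 1017 to 1275 FPKM in colitic Tmem173fl/fl mice, the macrophage markers to 109.5 to 271 against 318 to 429 and the neutrophil markers to 19.04 to 95.5 against 329 to 487. The epithelial markers summed to 3871 to 4729 against 1876 to 3304 FPKM, and 4 endothelial markers to 18.1 to 37.7 against 51.0 to 69.9 FPKM. The distal Hox genes summed to 33.5 to 192 FPKM in colitic Tmem173iΔmye against 8.64 to 15.1 FPKM in colitic Tmem173fl/fl mice. Sums of 6 goblet markers did not overlap, at 4961 to 5947 against 1852 to 3493 FPKM. Those of 8 colonocyte markers did, at 1467 to 3928 against 1977 to 2978 FPKM, as did those of smooth muscle and lymphocyte markers. Yet 3 of the 8 colonocyte genes were called, all higher in colitic Tmem173iΔmye mice, beside 2.81% of all genes. The part of these lists in the differences of the 5 genes was not tested. With the pancreas covariate Cyp4b1 (edgeR adjusted p 0.0658) and Cyp26b1 (0.0583) were not called.

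Other Cyp2d genes missed the threshold between colitic genotypes. Cyp2d12 was at 3.01, 1.84 and 10.9 FPKM against 0.602 to 1.16 FPKM (2.53 ± 0.64, adjusted p 0.0759 by edgeR) and Cyp2d10 at 16.96, 7.78 and 35.1 against 2.31 to 6.74 FPKM (2.04 ± 0.57, adjusted p 0.0946 by edgeR). Cyp2d26 was at 8.89, 8.80 and 3.01 against 14.7 to 27.9 FPKM (-1.47 ± 0.42, adjusted p 0.0994 by edgeR). Libraries of the genotypes did not overlap for any of these 3 genes. Cyp2d22 had an edgeR adjusted p of 0.0486 with a log2 fold change of -0.85, short of the threshold on the fold.

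Of the partner genes 3 were called between colitic genotypes, or 3.75%, near the 2.81% of all genes. Among them Rdh16 was higher (2.20 ± 0.29) and Ch25h lower (-1.40 ± 0.29) in colitic Tmem173iΔmye mice. Ch25h was at 2.77 ± 0.475 against 7.45 ± 1.58 FPKM. Cyp7b1, which acts on its product 25-hydroxycholesterol, was also lower, and whether the changes are linked was not tested. Calls of partner genes in this comparison varied with the method and with single libraries.

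**Figure D4:**
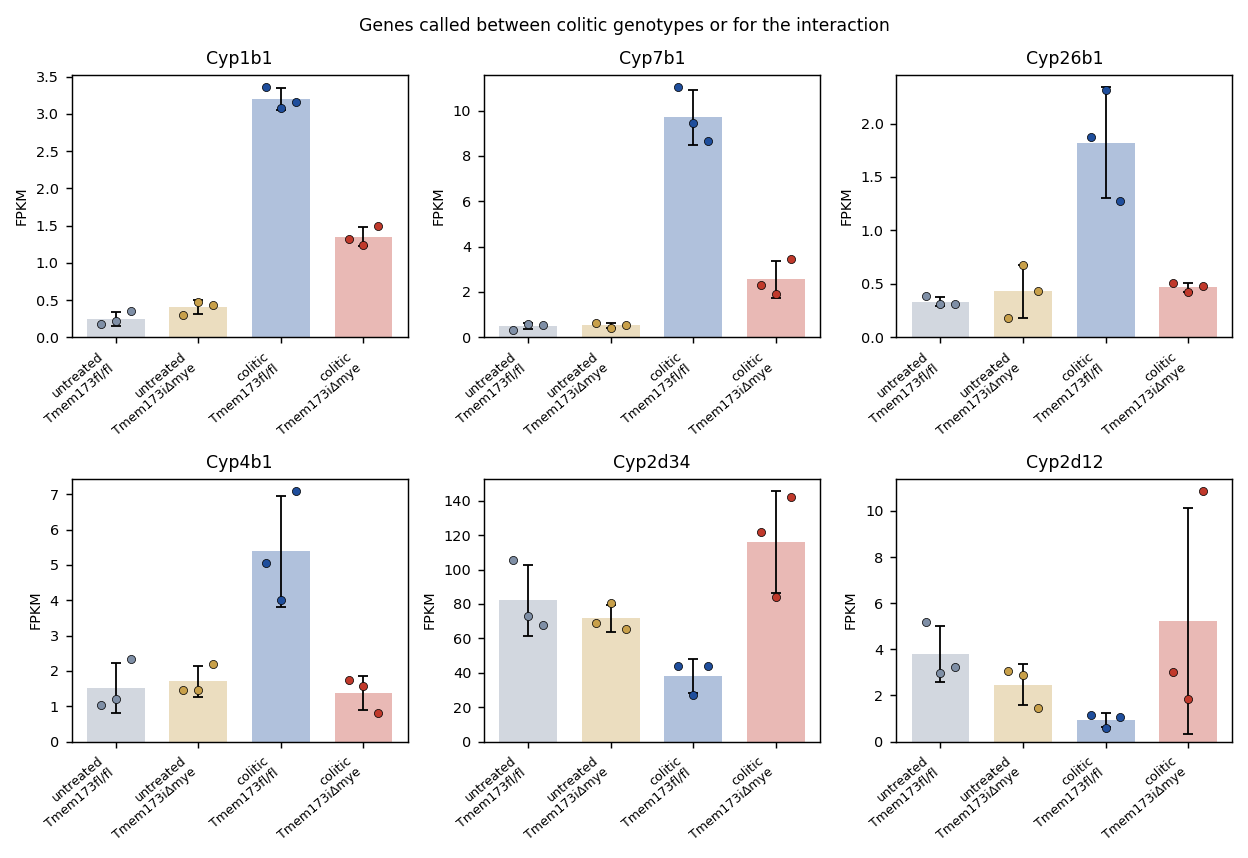
FPKM per library (points) with the group mean (bar) and SD (line, n = 3) of the 6 genes called between colitic genotypes or for the interaction, each on its own axis from 0. Cyp1b1, Cyp7b1, Cyp26b1 and Cyp4b1 are highest in colitic Tmem173fl/fl mice, whereas Cyp2d34 and Cyp2d12 are lowest there, and for Cyp2d12 replicate 5 of colitic Tmem173iΔmye mice stands at 10.9 FPKM.

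Whether the effect of DSS differed between the genotypes was tested by the interaction over all 12 libraries. Of the 49 members 4 were called, or 8.16%, beside 2.55% of all genes (0.934% higher, 1.61% lower). An unadjusted p under 0.05 was found for 15 of the 49, beside 18.1% of all genes. The effect was more positive in Tmem173iΔmye mice for Cyp2d34 (1.85 ± 0.35, adjusted p 0.0151 by edgeR) and Cyp2d12 (3.16 ± 0.77, adjusted p 0.0468 by edgeR), and smaller for Cyp7b1 (-1.97 ± 0.44, adjusted p 0.0318 by edgeR) and Cyp1b1 (-1.91 ± 0.40, adjusted p 0.0231 by edgeR). For Cyp2d34 the effect of DSS was -1.09 in Tmem173fl/fl and 0.68 in Tmem173iΔmye mice, and for Cyp2d12 it was -2.01 and 1.08. Cyp26b1 (-2.28 ± 0.57, adjusted p 0.0501 by edgeR), Cyp2d10 (2.62 ± 0.66, 0.0504) and Cyp4b1 (-2.08 ± 0.53, 0.0546) lay just outside the threshold.

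Among these 4 genes Cyp2d34 alone was called for the interaction without each of the 12 libraries in turn, with values from 1.59 to 2.03. It was not called without the 3 libraries in which Xist exceeded the Y-linked genes (1.70, edgeR adjusted p 0.0804). Cyp2d12 was lost in 10 of the 12 fits, and without replicate 5 of colitic Tmem173iΔmye mice its value was 2.01 (edgeR adjusted p 0.0603). Cyp7b1 was lost in 8 of 12, with values from -2.28 to -1.78, and Cyp1b1 in 5 of 12, with values from -2.25 to -1.72. With the pancreas covariate Cyp2d12 (adjusted p 0.125 by edgeR) and Cyp1b1 (0.0622) were not called. Among the partner genes 2 were called for the interaction, or 2.5% beside 2.55% of all genes, among them Rdh16 (2.48 ± 0.38).

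Over the 12 libraries, a few members followed each other in rank. The level of Cyp7b1 was most like that of Cyp1b1 (Spearman's rho 0.86), and that of Cyp1b1 was most like those of Cyp46a1 (0.909), Cyp27a1 (0.888) and Cyp26b1 (0.867). Cyp2d34 was most like its neighbours Cyp2d12 and Cyp2d10 (0.769 and 0.769), Cyp2c68 most like Cyp2f2 (0.846), and Cyp2c55 most like Cyp2c65 (0.776). These are descriptions over 12 libraries that share their group means, and near copies may also share reads.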

How the data were processed

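Poly-A RNA of 12 colon libraries was sequenced, 3 in each of 4 groups, and samples were grouped by their labels. The authors deposited a table with counts per gene and FPKM values for each library. Per the submitters' processing notes, CASAVA 1.8, fastp, HISAT2 2.0.5, featureCounts 1.5.0-p3 and DESeq2 1.20.0 were used with GRCm38 (mm10). Whether reads were counted by strand, and how reads of near copies were assigned, are not given in the sources used here. The deposited columns of group means, fold changes and p-values were not used.

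Counts were tested with edgeR 4.0.16 (quasi-likelihood test, TMM scaling, R 4.3.3) on the 24102 genes with at least 0.1 FPKM in at least 3 libraries, each comparison on its own libraries and the interaction on all 12. Calls required an adjusted p (Benjamini-Hochberg, over all genes tested) under 0.05 with a log2 fold change of 1 or more in size. The SE was derived as the size of the log2 fold change divided by the square root of the quasi-likelihood F statistic. Intervals of log2 fold changes came from this SE by a normal approximation, which is too narrow for so few libraries. Where a group had 0 counts, a floor of 3 counts over the group was used. Values were printed for members that were called in any comparison or had a mean of at least 1 FPKM in at least 1 group. Members, partner lists and marker lists were chosen with earlier results of these data known. Nothing in the labels says how the libraries of a group relate beyond their numbers, so p-values measure the spread between these libraries. Alternatives were DESeq2 1.42.0, limma 3.58.1 on log2(FPKM + 0.1) and log2(FPKM + 1), other filters, scalings and thresholds, 1 fit of all libraries, a replicate block, and fits without single libraries. The fit steps were tested on simulated data. Start regions came from a RefSeq table on GRCm38.p6. The values of 1 partner gene are not reported here.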

Additional observations from a re-analysis of the deposited data

Results flagged for a closer look

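The effect of DSS on 4 P450 genes differed between the genotypes by the interaction term, given here as the log2 effect in Tmem173iΔmye mice minus that in Tmem173fl/fl mice. The difference was 1.85 ± 0.35 (SE) for Cyp2d34 (edgeR adjusted p 0.0151) and 3.16 ± 0.77 for Cyp2d12 (edgeR adjusted p 0.0468). It was -1.91 ± 0.40 for Cyp1b1 (edgeR adjusted p 0.0231) and -1.97 ± 0.44 for Cyp7b1 (edgeR adjusted p 0.0318).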

How the results depend on the processing

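The log2 fold changes of the called members kept their direction under every alternative run, which was not examined for members that were not called or for partner genes. Of the 26 members called with DSS in Tmem173fl/fl mice, limma on log2(FPKM + 1) called 16, and fits without 1 library called 22 to 30. With DSS in Tmem173iΔmye mice (4 called), both limma fits called 0, an unadjusted p with the fold threshold 13, and fits without 1 library 0 to 9. Between colitic genotypes (5 called), the count was 9 without the filter and with DESeq2, 0 and 1 with limma at pseudocounts of 0.1 and 1, 13 with an unadjusted p, 10 in 1 fit of all libraries, 3 with the pancreas covariate (added after the data were seen), and 0 to 7 without 1 library. For the interaction (4 called), it was 11 without the filter, 8 with DESeq2, 2 with limma at 0.1, 14 with an unadjusted p, 2 without the 3 libraries with Xist above the Y-linked genes, 2 with the pancreas covariate, and 1 to 10 without 1 library. Of the partner genes, 4 were called with DSS in Tmem173iΔmye mice (7 without the filter and with DESeq2, 1 with limma at 0.1, 1 to 14 without 1 library), 3 between colitic genotypes (7, 9 and 0 in the same fits, 0 to 11 without 1 library) and 2 for the interaction (8 without the filter, 4 with DESeq2, 2 to 7 without 1 library). The cause of these shifts was not tested. Replicate numbers did not pair the samples, since deviations of same-numbered libraries correlated at -0.0805 to 0.108. With the replicate block 25 members were called with DSS in Tmem173fl/fl mice, 7 in Tmem173iΔmye mice, 2 between untreated genotypes, 1 between colitic genotypes (Cyp7b1, so that Cyp1b1, Cyp4b1, Cyp26b1 and Cyp2d34 were not called) and 5 for the interaction.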
